A study of Mus musculus with 10 samples.

Results

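The genes described here are the nuclear-encoded subunits of the mitochondrial oxidative phosphorylation complexes, with the complex I assembly factors of the Nduf family. They were chosen by name: every gene of the deposited table whose symbol starts with Nduf, Uqcr, Cox4 to Cox8 or Atp5, together with Sdha, Sdhb, Sdhc, Sdhd and Cyc1, and without 13 names that carry the pseudogene mark -ps. This gave 95 of 29868 genes, of which 38 were complex I subunits, 8 complex I assembly factors, 4 complex II, 9 complex III, 17 complex IV and 17 complex V, and 2 (Ndufa4l2 and Cox7a2l) were set apart as relatives of subunits. Ndufb4c, Ndufs6b and Cox6c2 are annotated as processed pseudogenes. Such copies can share reads with their parent genes, which was not tested here, so their values are uncertain.

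Oxidative phosphorylation is the last stage of aerobic energy metabolism and takes place in the inner mitochondrial membrane. Complex I takes electrons from NADH and complex II takes them from succinate, complex III passes them to cytochrome c and complex IV passes them to oxygen, while complexes I, III and IV pump protons that drive ATP synthesis by complex V. Most subunits are encoded in the nucleus and the others in mitochondrial DNA, so that each complex except complex II is assembled from products of both genomes.

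Male C57BL/6 mice of wild-type genotype underwent myocardial infarction (MI) surgery at 8 weeks of age and were then given saline (MI, n = 5 libraries) or navarixin, an oral antagonist of the chemokine receptor CXCR2, at 1 mg/kg once daily for 4 weeks (MI + Nav, n = 5 libraries). All 10 libraries are labelled as heart, and the comparison asks which transcripts differ with navarixin after infarction. The batch named in the labels is the same as the group, so batch and treatment cannot be told apart. The labels do not tie a library to a mouse, so p-values measure the spread between libraries only.

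The label was checked against markers. Of 14 cardiomyocyte genes, 13 were in the table and all 13 had a mean under 1 FPKM, with Myh6, Myh7, Nppb, Ryr2 and Mybpc3 under 0.1 FPKM in every library, whereas 12 of 12 proximal tubule genes of the kidney were present at a median of 127 FPKM. The libraries are therefore called here by their group and number, and heart is used only as their label. Depth, estimated from genes with a single transcript, was 16840000 to 20720000 fragments, and between 24.4 and 45.4% of all FPKM in a library belonged to mitochondrially encoded genes. FPKM, a fragment count divided by transcript length and by all mapped fragments, is scaled per length, which allows levels of different genes to be set side by side, although values still varied with length between some libraries. In these bulk libraries, fewer cells of a type and less RNA per cell cannot be told apart.

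The nuclear-encoded oxidative phosphorylation genes were among the abundant transcripts of these libraries. Their median mean level was 100.4 FPKM, against 3.73 FPKM for the 13412 genes that passed the filter on low values (at least 0.5 FPKM in at least 5 libraries). A mean of 10 FPKM or more was reached by 85 of 95 (89.5%), against 25.4% of all tested genes. The highest were Cox4i1, a regulatory subunit of cytochrome c oxidase (complex IV), at 555.7 FPKM, Cox6a1 at 529.3 FPKM, Cox8a at 494.6 FPKM and Atp5a1, the alpha subunit of ATP synthase, at 477.6 FPKM.

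**Figure D1:**
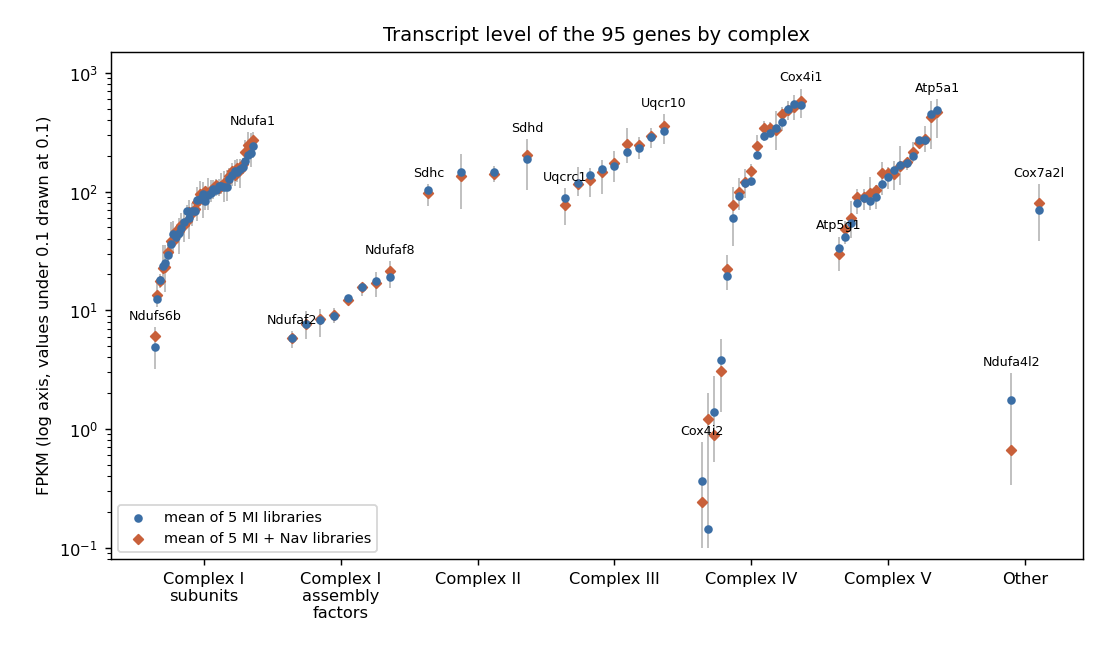
Transcript level (FPKM, log axis) of the 95 genes by complex. Circles are the mean of 5 MI libraries, diamonds the mean of 5 MI + Nav libraries and grey lines the range over all 10. Most subunits sit near 100 FPKM in both groups, the complex I assembly factors sit between 5.83 and 20.1 FPKM, and a few complex IV isoforms lie under 10 FPKM.

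Levels differed little between the complexes and more within them. The median gene of complex I subunits was at 91.5 FPKM, of complex II at 142.0 FPKM, of complex III at 169 FPKM, of complex IV at 136 FPKM and of complex V at 138 FPKM. The 8 complex I assembly factors, which help to build the complex without remaining in it, had a median of 10.7 FPKM and ranged from Ndufaf2 at 5.83 FPKM to Ndufaf8 at 20.1 FPKM, below all but 3 of the 38 complex I subunits.

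Among complex I subunits, Ndufa1, a small membrane subunit, was highest at 255.5 FPKM, followed by Ndufb9 at 226.1 FPKM and Ndufa2 at 225.2 FPKM. The 7 core subunits, which include those that carry the flavin and the iron-sulphur clusters, were lowest for Ndufs1 at 24.1 FPKM, and their median of 91.4 FPKM was close to the 91.5 FPKM of the 31 accessory subunits. All 4 subunits of complex II, the succinate dehydrogenase that is also an enzyme of the citric acid cycle, lay within a 2-fold range, from the membrane anchor Sdhc at 100.4 FPKM to the other anchor Sdhd at 195.9 FPKM, with the catalytic subunits Sdha at 140.5 FPKM and Sdhb at 143.6 FPKM between them.

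In complex III the small subunit Uqcr10 was highest at 340.6 FPKM, followed by the Rieske iron-sulphur protein Uqcrfs1 at 289.4 FPKM and Uqcrb at 240.4 FPKM. The core protein Uqcrc1 was lowest at 82.3 FPKM, and cytochrome c1 (Cyc1) was at 130.6 FPKM. In complex V the alpha and beta subunits Atp5a1 and Atp5b, at 477.6 and 438.4 FPKM, were above every other gene of that complex. Atp5g1 was lowest at 31.7 FPKM. In complex IV the genes spread from 555.7 FPKM (Cox4i1) to 0.30 FPKM (Cox4i2), with isoform pairs at the ends.

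The share of each complex in the summed level of the 95 genes was similar from library to library. Complex I subunits made up 28.6 ± 1.46% in MI and 29.0 ± 0.60% in MI + Nav (SD, n = 5 each), complex IV 28.3 ± 1.43% and 29.0 ± 0.46%, and complex V 23.3 ± 1.93% and 22.5 ± 0.42%. Complex III made up 13.8 ± 0.53% and 13.7 ± 0.18%. The largest relative spread was that of complex II, at 4.70 ± 1.02% in MI, where MI 3 had 3.27% and MI 2 had 5.89%, and 4.42 ± 0.33% in MI + Nav. The groups overlapped for every complex.

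Several complex IV subunits exist as a general form and a form that adult heart and skeletal muscle of the mouse are known to use. In these libraries the general form made up nearly all of the pair. Cox6a2, the heart and muscle form, was at 0.67, 0.63, 1.52, 1.31 and 2.78 FPKM in MI 1 to 5 and at 1.41, 0.58, 1.03, 0.93 and 0.53 FPKM in MI + Nav 1 to 5, whereas its counterpart Cox6a1 was between 397.8 and 648.2 FPKM. Cox6a2 was thus 0.09 to 0.44% of the pair in every library, with overlapping groups. Cox8b, the other form of Cox8a, was at most 0.37% of its pair.

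Cox7a1 was the exception among the muscle forms. It was at 20.2, 16.4, 22.3, 14.7 and 24.2 FPKM in MI 1 to 5 and at 22.6, 18.0, 18.1, 29.2 and 23.0 FPKM in MI + Nav 1 to 5, which was 5.04 to 7.07% of Cox7a1 and Cox7a2 together. Cox7a2 lay between 265.5 and 395.0 FPKM. Both groups covered the same range of the Cox7a1 share, 6.18 ± 0.83% in MI and 6.07 ± 0.79% in MI + Nav.

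The other isoform sets were as unequal. Cox4i2, known as the form used in lung and under low oxygen, was the member left out by the filter, at 0 to 0.77 FPKM and at most 0.16% of Cox4i1 and Cox4i2. Cox6b2, known from testis, was at 1.37 to 5.69 FPKM and 0.51 to 1.42% of its pair with Cox6b1. Cox7b2 and Cox8c were not analysed here.

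The membrane ring of ATP synthase is built from subunit c, which Atp5g1, Atp5g2 and Atp5g3 encode with the same mature protein and different import signals. Atp5g3 supplied 75.6 ± 1.49% of the summed level in MI and 75.8 ± 1.85% in MI + Nav, Atp5g2 15.1 ± 0.83% and 16.1 ± 1.62%, and Atp5g1 9.34 ± 1.73% and 8.10 ± 1.06%. The highest Atp5g1 share, 12.4%, was that of MI 3. The order of the 3 genes was the same in all 10 libraries.

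**Figure D2:**
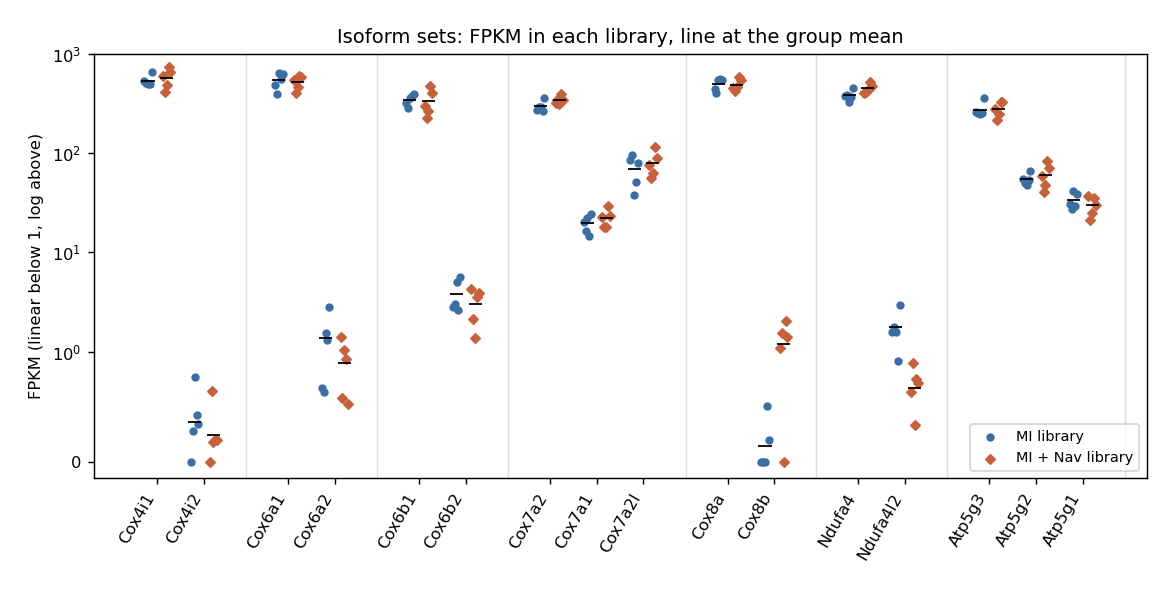
FPKM of the isoform sets in each library (vertical axis linear below 1 FPKM and logarithmic above). Circles are MI libraries, diamonds MI + Nav libraries and black lines group means. Cox6a1, Cox8a and Cox4i1 lie above 390 FPKM while Cox6a2, Cox8b and Cox4i2 lie under 3 FPKM, and Ndufa4l2 is the gene whose groups do not overlap.

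Promoter windows from RefSeq (GRCm38.p6, the assembly of mm10), 250 bases before to 50 bases after the annotated start and 1 window a gene, were matched to 75 of the 95 genes. Those without a window included Atp5a1, Atp5mpl, Cox4i1, Cox4i2, Cox6a2, Cox6c, Cox6c2, Cyc1, Ndufa2, Ndufa4l2, Ndufaf6, Ndufb4c, Ndufb9, Ndufs1, Ndufs6b, Sdhc, Uqcrb, Uqcrc2 and Uqcrq. Nuclear respiratory factor 1 (NRF1), the ETS family factor GABP (also called NRF2) and YY1 are known regulators of genes of this family, so the windows were searched on both strands for an NRF1 core, GCGCATGCG, an ETS core, CCGGAAG, and a YY1 core, AAGATGGC. The NRF1 core was in 10 of 75 windows (13.3%) against 1.81% of all 27025 promoters, the ETS core in 18 (24.0%) against 9.12% and the YY1 core in 10 (13.3%) against 2.88%. At least 1 of the 3 cores was in 33 windows (44.0%) against 12.98% of all promoters, and no windows held overlapping cores of different kinds.

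By complex, a core was found in 13 of 32 complex I subunits, 4 of 7 complex I assembly factors, 2 of 3 complex II genes, 3 of 5 complex III genes, 3 of 12 complex IV genes and 8 of 15 complex V genes. The YY1 core was found in 7 complex I subunits and in none of the complex III or IV genes with a window. CG pairs were also frequent, with a median of 15 in the 250 upstream bases against 6 over all promoters. The letters of the NRF1 and ETS cores contain CG, and the shares over all promoters were not matched for CG pairs. The motif letters were also shortened after counts with a longer NRF1 core had been seen. These matches describe the letters of the windows and say nothing of binding in these libraries.

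Upstream sequence is printed for 3 genes with a core and for the pair of Cox8a and Cox8b, whose levels are far apart, each 5′ to 3′ on the strand of the gene, in lower case, with the cores in capitals and without bases that the gene model of the deposited table covers. Cox6a1 (chr5:115348982-115349208, minus strand) holds a palindrome that contains the NRF1 core on both strands. Sdhd (chr9:50603850-50604099, minus strand) and Uqcrh (chr4:116075071-116075320, minus strand) hold the ETS core. Cox8a (chr19:7217617-7217866, minus strand), at 494.6 FPKM, and Cox8b (chr7:140900447-140900696, minus strand), at 0.67 FPKM, hold no core in the bases printed, and have 11 and 1 CG pairs. The full windows run on past the annotated start. That of Cox8a holds 2 ETS cores and that of Cox6a1 holds 1 ETS core outside the bases printed, and both are counted above. The full window of Cox8b holds no core.
Cox6a1: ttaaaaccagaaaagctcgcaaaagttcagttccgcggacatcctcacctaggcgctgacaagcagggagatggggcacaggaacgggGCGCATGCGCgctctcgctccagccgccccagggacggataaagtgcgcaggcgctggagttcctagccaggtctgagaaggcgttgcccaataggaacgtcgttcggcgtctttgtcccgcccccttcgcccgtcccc
Sdhd: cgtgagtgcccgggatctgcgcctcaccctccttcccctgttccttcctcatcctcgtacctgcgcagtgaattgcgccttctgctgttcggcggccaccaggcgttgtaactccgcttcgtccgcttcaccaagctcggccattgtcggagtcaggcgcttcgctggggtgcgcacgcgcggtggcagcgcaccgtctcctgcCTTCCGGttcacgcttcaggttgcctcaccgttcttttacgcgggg
Uqcrh: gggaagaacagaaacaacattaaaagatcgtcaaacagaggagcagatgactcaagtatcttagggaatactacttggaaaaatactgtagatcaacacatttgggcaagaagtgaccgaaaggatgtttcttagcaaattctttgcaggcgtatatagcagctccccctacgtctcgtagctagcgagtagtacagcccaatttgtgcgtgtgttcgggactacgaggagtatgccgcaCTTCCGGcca
Cox8a: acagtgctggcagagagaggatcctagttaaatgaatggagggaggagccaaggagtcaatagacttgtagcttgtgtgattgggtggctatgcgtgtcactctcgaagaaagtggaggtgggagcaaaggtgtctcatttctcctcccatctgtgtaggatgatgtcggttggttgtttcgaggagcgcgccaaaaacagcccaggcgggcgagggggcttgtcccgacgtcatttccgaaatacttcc
Cox8b: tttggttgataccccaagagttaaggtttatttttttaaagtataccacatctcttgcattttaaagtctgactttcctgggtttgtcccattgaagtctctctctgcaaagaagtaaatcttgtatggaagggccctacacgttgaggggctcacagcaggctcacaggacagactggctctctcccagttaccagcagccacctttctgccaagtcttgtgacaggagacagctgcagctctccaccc

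Between the treatment groups, no nuclear-encoded oxidative phosphorylation gene passed the test. Summed over the 95 genes, the level was 12107, 11673, 12396, 11712 and 14397 FPKM in MI 1 to 5 and 12701, 11064, 11658, 15529 and 14003 FPKM in MI + Nav 1 to 5. The groups overlapped widely, and the lowest and the highest library were both in MI + Nav. By limma on log2(FPKM + 0.5) with Benjamini-Hochberg adjustment over the 13412 tested genes, 0 of the 94 tested members passed both an adjusted p of 0.05 and a change of 1 log2 unit in either direction, against 30 of all tested genes (0.224%), and 0 of 94 had an adjusted p under 0.05 at any fold change, against 49 (0.365%). At an unadjusted p under 0.05, Cox8b, Cox6c and Ndufa6 were higher in MI + Nav (3 of 94, against 1.25% of all tested genes) and Ndufa4l2 was lower (1 of 94, against 11.5%).

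Fold changes of the members were small. The median log2 fold change, MI + Nav over MI, was 0.05 over the 94 genes, with 59 above and 35 below 0, while over all tested genes it was -0.12, with 3794 above and 9618 below 0. The median was 0.08 for complex I subunits, 0.01 for complex I assembly factors, -0.03 for complex II, 0.02 for complex III, 0.11 for complex IV and 0.05 for complex V. Summed levels were 3557 ± 380 and 3763 ± 485 FPKM for complex I subunits, 3531 ± 366 and 3765 ± 518 FPKM for complex IV and 2897 ± 356 and 2926 ± 423 FPKM for complex V in MI and MI + Nav (SD, n = 5 each). The differences were smaller than the spread between libraries.

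These medians depended on how the libraries were scaled. With median-of-ratios scaling in place of the deposited scale, the median over all tested genes moved from -0.12 to 0.01, the median of the members to 0.21 with 87 of 94 above 0, and at an unadjusted p under 0.05 there were 18 members higher and 1 lower, against 7.37% and 7.88% of all tested genes. With FPKM rescaled to the sum of nuclear genes, the members' median was 0.02 with 50 of 94 above 0, and 1 was higher and 2 lower, against 0.872% and 12.2% of all tested genes. Relative to the median of all tested genes, the members' median was 0.18 higher on the deposited scale. It was 0.17 higher after nuclear rescaling and 0.20 higher after median-of-ratios scaling. Each rescaling divides a library by a single factor, which shifts all genes nearly alike. These differences therefore had to lie close together and are not separate readings. No member passed an adjusted p of 0.05 under any of the 3 scalings.

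**Figure D3:**
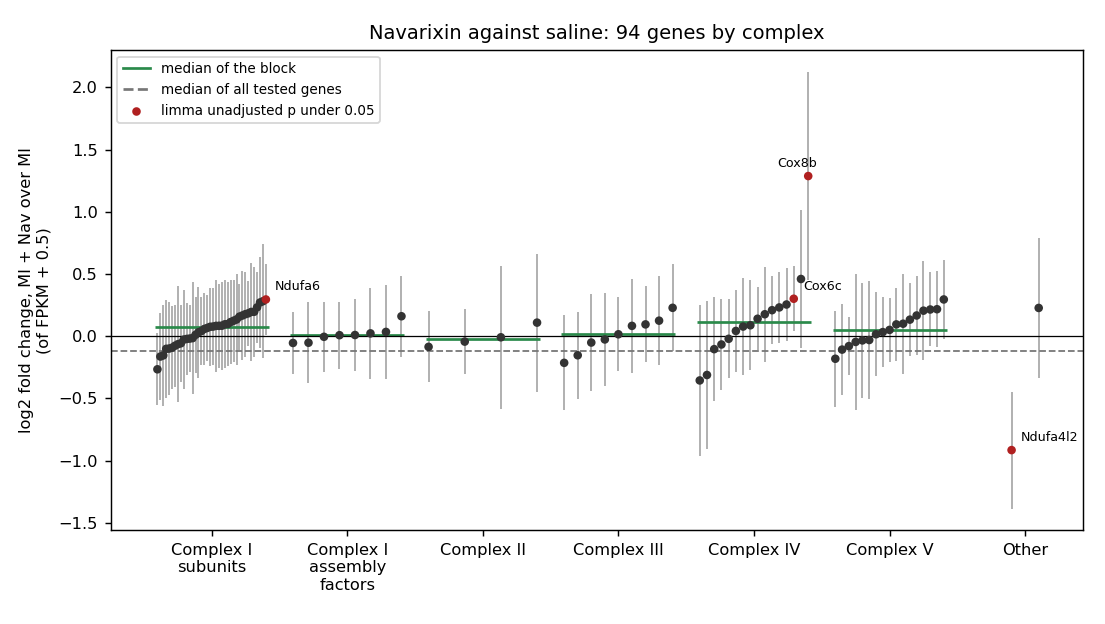
Log2 fold change (MI + Nav over MI, of FPKM + 0.5) of the 94 tested genes by complex, with 95% confidence intervals from limma. Green lines are the medians of each block, the dashed line is the median of 13412 genes at -0.12, and red points have an unadjusted p under 0.05. Nearly all points lie between -0.5 and 0.5, with Cox8b at 1.29 and Ndufa4l2 at -0.92 outside.

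Ndufa4l2 had the smallest p-value of the family. It encodes a paralogue of the complex IV subunit Ndufa4 and is known as a target of hypoxia-inducible factor that lowers respiratory activity. It was at 1.58, 1.76, 1.59, 0.92 and 2.95 FPKM in MI 1 to 5 and at 0.63, 0.90, 0.34, 0.75 and 0.72 FPKM in MI + Nav 1 to 5. All MI libraries were above all MI + Nav libraries, with MI 4 and MI + Nav 2 almost touching. It was the only 1 of the 94 members whose groups did not overlap in the lower direction, against 2.57% of all tested genes, and no member was without overlap in the higher direction, against 0.268%.

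The log2 fold change of Ndufa4l2 was -0.92 ± 0.22 (SE), with an adjusted p of 0.101 by limma. These values rest on an estimated 6 to 50 fragments per library. Without MI 4 the log2 fold change was -1.07 with an adjusted p of 0.012. With array weights, which give less weight to libraries that vary more, it was -0.94 with an adjusted p of 0.0135. Over 21 alternatives the adjusted p ranged from 0.012 to 0.277. Its partner Ndufa4 was at 382.6 ± 47.0 FPKM in MI and 448.4 ± 46.5 FPKM in MI + Nav (SD, n = 5 each), with a log2 fold change of 0.23 and an adjusted p of 0.477, so that Ndufa4l2 was 0.25 to 0.65% of the pair in MI and 0.08 to 0.22% in MI + Nav.

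Endothelial markers moved in the direction of Ndufa4l2, and mural cell markers were divided. All 12 endothelial markers had a lower mean in MI + Nav, and their summed level was 33.6 to 81.8 FPKM in MI and 17.9 to 38.6 FPKM in MI + Nav. Of 9 mural cell markers, 5 had a lower mean in MI + Nav, with summed levels of 22.0 to 39.1 FPKM in MI and 23.1 to 76.7 FPKM in MI + Nav. Among those of pericytes, Pdgfrb was at 1.72 to 4.57 FPKM in MI and 0.91 to 1.19 FPKM in MI + Nav. Kcnj8 was at 3.19 ± 0.36 and 2.00 ± 0.40 FPKM and Abcc9 at 1.34 ± 0.25 and 0.99 ± 0.12 FPKM (SD, n = 5 each). The mural marker Notch3 was at 0.48 ± 0.09 and 0.40 ± 0.10 FPKM, and Cspg4 at 0.95 ± 0.13 and 0.94 ± 0.16 FPKM. Rgs5 alone of these was higher in MI + Nav, at 4.75 ± 1.14 and 6.46 ± 1.10 FPKM. Of the smooth muscle genes, Acta2 was at 4.18 to 7.37 FPKM in MI and 6.13 to 33.0 FPKM in MI + Nav. Myh11 was at 0.68 ± 0.19 and 2.37 ± 1.41 FPKM and Tagln at 9.73 ± 4.52 and 13.9 ± 9.47 FPKM (SD, n = 5 each). All 8 leukocyte markers also had a lower mean in MI + Nav. Over all tested genes, 9618 of 13412 had a log2 fold change below 0, so lower means were common in the whole table. No defining marker of these lists was under 0.1 FPKM in every library. Their part in the result was not tested.

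Cox8b had the largest fold change. It was listed at 0, 0, 0, 0.51 and 0.20 FPKM in MI 1 to 5 and at 1.08, 1.54, 0, 2.01 and 1.39 FPKM in MI + Nav 1 to 5. All MI + Nav libraries except MI + Nav 3 were above all MI libraries, and MI + Nav 3 was at 0 like MI 1 to 3. The log2 fold change was 1.29 ± 0.39 (SE), with an adjusted p of 0.197 by limma, on an estimated 0 to 13 fragments per library. Without MI + Nav 3 it was 1.68 with an adjusted p of 0.0371. With array weights it was 1.60 with an adjusted p of 0.0188, and over 21 alternatives the adjusted p ranged from 0.00845 to 0.40.

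Cox8b is also known from brown fat, and fat cell genes were higher on average in MI + Nav. In a list of 6 adipocyte genes chosen after their values were seen, all 6 had a higher mean in MI + Nav. That choice could have fixed the count, which therefore only describes these genes. The summed level was 0.09 to 0.75 FPKM in MI and 0.52 to 27.6 FPKM in MI + Nav. Cfd alone was at 13.6 FPKM in MI + Nav 2 and 23.6 FPKM in MI + Nav 4. Adipoq (adiponectin) was at 0, 0.11, 0, 0 and 0 FPKM in MI 1 to 5 and at 0.57, 2.84, 0, 2.56 and 0.88 FPKM in MI + Nav 1 to 5. MI + Nav 3 was the MI + Nav library at 0 for both Adipoq and Cox8b. Ucp1, a brown fat gene of the list, was at 0, 0, 0.17, 0.07 and 0 FPKM in MI 1 to 5. In MI + Nav 1 to 5 it was at 0.12, 2.06, 0, 0.11 and 0 FPKM. Ucp1 thus did not follow Cox8b in MI + Nav 4 and MI + Nav 5, where Cox8b was at 2.01 and 1.39 FPKM. Lep was under 0.1 FPKM in every library. The part of these cells in the Cox8b values was not tested.

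The remaining members at an unadjusted p under 0.05 were abundant genes with small differences. Cox6c, a small complex IV subunit, was at 112.4, 117.2, 127.9, 112.2 and 139.3 FPKM in MI 1 to 5 and at 133.7, 148.8, 149.1, 171.3 and 147.7 FPKM in MI + Nav 1 to 5. Only MI 5 reached the range of MI + Nav. The log2 fold change was 0.30 ± 0.12 (SE) with an adjusted p of 0.328 by limma.

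Ndufa6, an accessory complex I subunit, was at 70.4, 70.4, 98.5, 79.8 and 93.5 FPKM in MI 1 to 5 and at 104.1, 100.8, 96.7, 107.4 and 93.6 FPKM in MI + Nav 1 to 5. Here MI 3 and MI 5 were high, and MI + Nav varied little. The log2 fold change was 0.30 ± 0.13 (SE) with an adjusted p of 0.379. Ndufa10, another accessory subunit, was lower on average in MI + Nav, at 56.7 ± 4.88 FPKM against 68.6 ± 9.39 FPKM in MI (SD, n = 5 each), with a log2 fold change of -0.27 and an adjusted p of 0.425.

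Cox7c, another small complex IV subunit, was at 202.2 ± 9.98 FPKM in MI and 243.9 ± 41.5 FPKM in MI + Nav (SD, n = 5 each), with a log2 fold change of 0.25 and an adjusted p of 0.45. Cox7a2l, a relative of Cox7a2 known for joining complexes III and IV into supercomplexes, was at 84.6, 95.9, 38.0, 51.2 and 79.3 FPKM in MI 1 to 5 and at 76.3, 56.6, 62.4, 114.9 and 89.3 FPKM in MI + Nav 1 to 5. The groups overlapped, with MI 3 lowest and MI + Nav 4 highest, and the log2 fold change was 0.23 with an adjusted p of 0.751 by limma.

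In complex III the smallest p-values were those of Uqcrh, with a log2 fold change of 0.23 and an adjusted p of 0.568 by limma, Uqcrc1 (-0.21, 0.636) and Cyc1 (-0.15, 0.726). In complex V they were those of Atp5mpl, a small membrane subunit (0.30, 0.425), Atp5l (0.21, 0.523) and Atp5j2 (0.22, 0.529). In complex II the log2 fold change was -0.09 for Sdhc, 0.11 for Sdhd, -0.04 for Sdhb and -0.01 for Sdha, and the 95% confidence intervals of all 4 included 0. Log2 fold changes of the assembly factors ranged from -0.05 (Ndufaf4) to 0.16 (Ndufaf8).

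Individual libraries differed more than the groups. MI + Nav 4 had the highest value of the 10 libraries for 42 of the 94 tested genes, MI 5 for 22 and MI 3 for 19, while MI + Nav 2 had the lowest value for 25, MI 2 for 24 and MI 3 for 16. The median difference from each gene's own mean over the 10 libraries, in log2 units, was 0.26 in MI + Nav 4 and 0.18 in MI 5, and -0.22 in MI + Nav 2 and -0.17 in MI 2. MI 3 was thus high for some genes of the family and low for others. As a share of the summed FPKM of nuclear genes, the 95 genes ranged from 3.12% in MI + Nav 2 to 4.39% in MI + Nav 4, with the same libraries at the ends.

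**Figure D4:**
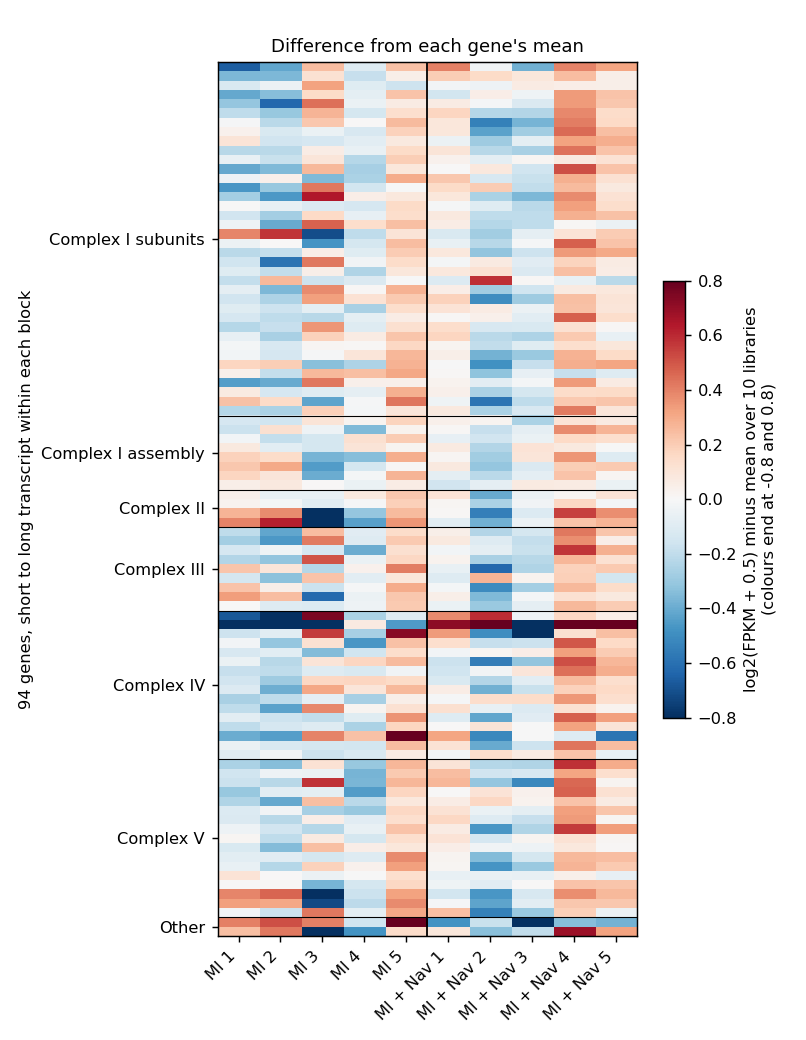
Difference of log2(FPKM + 0.5) from the gene's mean over 10 libraries for the 94 tested genes (rows, in blocks by complex and from short to long transcript within a block). Columns are libraries, with MI left and MI + Nav right of the black line. The column of MI + Nav 4 is red nearly throughout, and in MI 3 red and blue genes stand in the same blocks.

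Within MI 3 the median difference was above 0 for short transcripts and below 0 for long ones. Length is the median over the protein-coding transcripts of a gene in GENCODE M21, a proxy for the transcript in use. The proxy can place a single gene wrongly among the short or the long ones. By it, some genes went the other way, such as Atp5g1 (2675.5 bases) at 0.42 and Ndufa4 (460 bases) at -0.35. Whether these are true exceptions or misplaced by the proxy was not tested. The 32 shortest transcripts (231 to 569.5 bases) had a median difference of 0.12 in MI 3 and the 31 longest (908 to 2675.5 bases) of -0.14. In MI 1 and MI 2 the order was the opposite, at -0.17 and 0.05 in MI 1 and at -0.22 and -0.02 in MI 2. Across the 94 genes, which are not independent replicates, Pearson's r of the difference with log2 length was 0.60 in MI 1, 0.53 in MI 2 and -0.38 in MI 3, and it was between -0.38 and 0.20 in the other 7 libraries.

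The pattern was not confined to this family. Over 13272 other tested genes the slope had the same sign as in the members in 9 of 10 libraries, the exception being MI 5, and was smaller, for instance 0.06 against 0.20 log2 units per doubling of length in MI 1, 0.09 against 0.21 in MI 2 and -0.04 against -0.20 in MI 3.

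Named genes show the size of this spread. Sdha was at 177.2, 206.6, 70.7, 99.5 and 172.0 FPKM in MI 1 to 5 and at 126.6, 102.7, 129.8, 157.3 and 162.2 FPKM in MI + Nav 1 to 5. Atp5b, the catalytic beta subunit of ATP synthase, was at 553.6, 581.9, 226.9, 374.8 and 526.4 FPKM in MI 1 to 5 and at 380.5, 304.9, 386.1, 544.7 and 504.4 FPKM in MI + Nav 1 to 5. In both genes MI 3 was the lowest of the 10 libraries and MI 2 the highest. Uqcr10, with a transcript of 434 bases, was at 291.7, 251.7, 399.2, 315.4 and 370.9 FPKM in MI 1 to 5, so that MI 2 was the lowest and MI 3 the highest of the MI libraries.

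**Figure D5:**
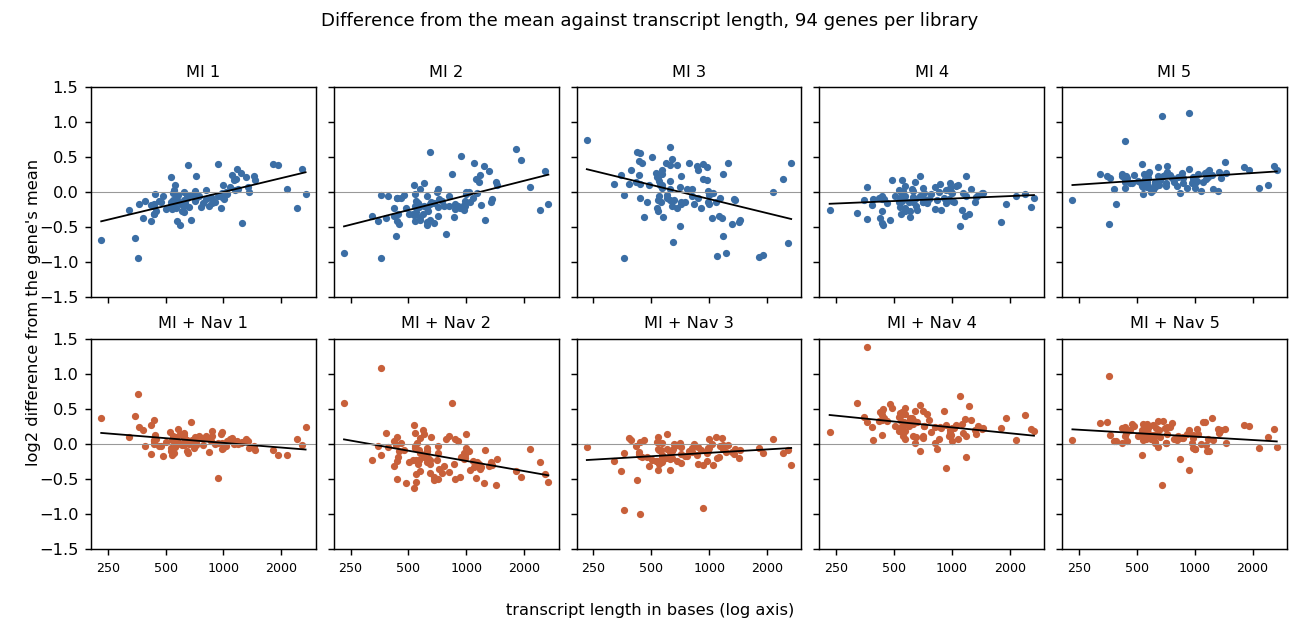
Difference from the gene's mean (log2 units) against transcript length (bases, log axis) for 94 genes in each library, with a least-squares line. MI libraries are in the top row and MI + Nav libraries in the bottom row. The line climbs in MI 1 and MI 2 and descends in MI 3 and MI + Nav 2.

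Fold changes between the groups were also set against the same length proxy. The median log2 fold change was 0.12 for the 32 shortest members, 0.08 for the 31 of middle length and -0.02 for the 31 longest. The complex I core subunits, with a median length of 977 bases, had a median log2 fold change of -0.06 with 1 of 7 above 0, and the accessory subunits, with a median length of 625 bases, had 0.08 with 24 of 31 above 0. With each library's length slope as a covariate, an alternative chosen after seeing the data, these medians were -0.07 and -0.06, with 3 of 7 and 9 of 31 above 0, and at an unadjusted p under 0.05 there were 9 members lower and 0 higher, against 10.2% and 2.5% of all tested genes. The difference between core and accessory subunits was not tested.

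Ndufa12, an accessory complex I subunit, stood apart from this pattern. It was at 32.2, 44.1, 32.7, 33.9 and 36.7 FPKM in MI 1 to 5 and at 34.1, 55.5, 36.9, 35.2 and 31.6 FPKM in MI + Nav 1 to 5. The processed copy Ndufa12-ps, which the rule leaves out, was at 42.7 FPKM in MI 2 and 41.5 FPKM in MI + Nav 2 and between 105.8 and 178.9 FPKM in the other 8 libraries. The libraries in which Ndufa12 was high were those in which its copy was low. Whether reads are shared between the copies was not tested, so both values are uncertain, and Ndufa12 was singled out after its values were seen.

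No other gene of the pathway passed an adjusted p of 0.05 either. Of the 13 mitochondrially encoded subunits, 0 passed an adjusted p of 0.05 in limma, against 0.365% of all tested genes. At an unadjusted p under 0.05, 0 were higher and 0 lower, against 1.25% and 11.5% of all tested genes. Their median log2 fold change was 0.18, with 12 above 0, against -0.12 over all tested genes. Their summed level was far above that of the nuclear partners, at 55867 ± 18922 and 64257 ± 20438 FPKM in MI and MI + Nav for the 3 genes of complex IV (SD, n = 5 each), and it was highest in MI + Nav 2 and lowest in MI 5 for complexes I, III, IV and V. MI + Nav 2 had the lowest summed level of the nuclear-encoded genes and MI 5 the highest of the MI libraries. FPKM are relative to all fragments of a library, so the level of the nuclear genes and that of the mitochondrial genes are not free of each other.

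Of 38 tested assembly factors outside the family, 0 passed an adjusted p of 0.05 by limma, against 0.365% of all tested genes. At an unadjusted p under 0.05, 1 was higher and 1 lower, against 1.25% and 11.5% of all tested genes. Coa6, a copper chaperone of complex IV, was at 57.1, 57.9, 66.1, 57.4 and 55.4 FPKM in MI 1 to 5 and at 74.4, 69.7, 73.9, 69.6 and 67.9 FPKM in MI + Nav 1 to 5, with a log2 fold change of 0.27 and an adjusted p of 0.331. Acad9, a complex I assembly factor and acyl-CoA dehydrogenase, was at 13.2 ± 1.35 FPKM in MI and 10.1 ± 1.53 FPKM in MI + Nav (SD, n = 5 each), with a log2 fold change of -0.38 and an adjusted p of 0.283. The groups of Coa6 did not overlap, which in the higher direction held for 0.268% of all tested genes. Those of Acad9 overlapped only through MI + Nav 5.

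Electron carriers and the enzymes of coenzyme Q synthesis had a median log2 fold change of -0.04 over 16 genes. It was -0.15 over 12 genes of the citric acid cycle and -0.13 over 16 transcriptional regulators of mitochondrial genes, against -0.12 over all tested genes. In each of these lists 0 genes passed an unadjusted p of 0.05, against 1.25% higher and 11.5% lower over all tested genes. The smallest p-values belonged to Ogdh, a subunit of 2-oxoglutarate dehydrogenase (-0.35, adjusted p of 0.425 by limma), Gabpb1, a subunit of GABP (-0.28, 0.402), and Ppargc1b, the coactivator PGC-1 beta (-0.36, 0.425).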

How the data were processed

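Per the labels, mRNA was selected on oligo(dT) beads, the second strand was marked with dUTP, and paired reads were taken. Tools in the submitters' processing notes are cutadapt 1.9, HISAT2 2.0.4, StringTie 1.3.4d, DESeq2 and edgeR, with the build mm10; the last 2 tools need counts and were not run here. The authors deposited FPKM values, 1 column per library. Which annotation release was used is not stated, and 99.67% of gene IDs were found in GENCODE M21. FPKM are relative to all mapped fragments of a library. Whether abundant mitochondrial transcripts lowered the other values was not tested. Relative to its mean over the libraries, the summed FPKM of nuclear genes was 1.03 in MI + Nav 2, with 45.4% mitochondrial. It was 1.01 in MI 5, with 24.4% mitochondrial.

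The filter on low values kept a gene when 5 or more libraries reached 0.5 FPKM. Tests were made with limma 3.58.1 (R 4.3.3; trend and robust prior) on log2(FPKM + 0.5), with a two-sided test, all 10 libraries and Benjamini-Hochberg adjustment over all tested genes. Fold changes on this scale understate the change of low genes. The script was tested on simulated data. Groups and replicate numbers came from the sample labels. The members and lists were chosen with earlier results of these data known. Named members were the isoform sets, any member at an adjusted p under 0.05 and, in each group of members, the 3 of highest level, the tested member of lowest level and the 3 of lowest p. From each list of other genes, up to 3 of lowest p could be named. Alternatives were the pseudocount, the filter, nuclear rescaling, median-of-ratios scaling, no trend, array weights, a replicate block, the mitochondrial share as a covariate, and leaving out each library or the 4 of highest mitochondrial share (MI 3, MI 4, MI + Nav 2 and MI + Nav 3). The length slope as a covariate was added after seeing the data. The motif letters were shortened after counts with a longer NRF1 core had been seen. A result on 1 member gene is not reported here.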

Additional observations from a re-analysis of the deposited data

Results flagged for a closer look

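Within groups of 5 libraries, 106 groups of values were searched for a library far from the other 4, by Dixon's criterion (a gap to the nearest library of over 0.71 of the group's range), which chance meets in about 1 of 20 groups. It was met in 5. Cox4i1 was at 650.8 FPKM in MI 5, while the other MI libraries lay between 494.8 and 527.6 FPKM. Atp5g3 was at 355.1 FPKM in MI 5, with the other MI libraries between 247.0 and 257.6 FPKM. The summed level of the 95 genes was also set apart in MI 5, at 14397 FPKM. Atp5mpl was at 177.1 FPKM in MI + Nav 4, and Ndufaf2 was at 4.79 FPKM in MI + Nav 3, the lowest of its group.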

How the results depend on the processing

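Over 22 alternatives, the median log2 fold change of the members ranged from -0.05 to 0.21. With array weights, without the 4 libraries of highest mitochondrial share, without MI 4 or without MI + Nav 3, Ndufa4l2 or Cox8b passed the threshold. Members called were 0 in the main test, 1 with array weights, 2 without the 4 libraries and 0 to 1 leaving out each library in turn. Members at an adjusted p under 0.05 were 0 in the main test, 2 with array weights, 2 without the 4 libraries and 0 to 1 leaving out each library. Members higher at an unadjusted p under 0.05 were 3 in the main test, 1 after nuclear rescaling, 18 after median-of-ratios scaling, 27 with array weights, 1 with the replicate block, 15 with the mitochondrial share as a covariate, 14 without the 4 libraries, 0 with the length slope and 1 to 7 leaving out each library (7 without MI 3, 6 without MI 5, and 1 without MI 1, MI 2, MI 4 or MI + Nav 4). Members lower were 1 in the main test, 0 with a filter at 1 FPKM, 2 after nuclear rescaling, 2 with the mitochondrial share, 2 without the 4 libraries, 9 with the length slope and 1 to 2 leaving out each library (2 without MI 2). Shares over all tested genes are given above only for the main test, nuclear rescaling, median-of-ratios scaling and the length slope. The counts of members in the other settings have no such share beside them and cannot be read as particular to the family. At an adjusted p under 0.05, array weights, the mitochondrial share and leaving out the 4 libraries also raised the count over all tested genes.

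The count over all tested genes was 30 in the main test, 18 with a pseudocount of 1, 0 with no filter, 117 with array weights, 6 with the replicate block, 167 without the 4 libraries, 6 with the length slope and 1 to 197 leaving out each library, from 1 to 3 without any of 8 libraries, 37 without MI + Nav 4 and 197 without MI 4. At an adjusted p under 0.05 of any fold change it was 49 in the main test, 0 with no filter, 378 with array weights, 6 with the replicate block, 91 with the mitochondrial share, 302 without the 4 libraries, 6 with the length slope and 1 to 292 leaving out each library. With median-of-ratios scaling, the median of the complex I assembly factors moved to 0.16 and that of all tested genes to 0.01.

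Of the 94 members, 28 changed sign with median-of-ratios scaling (Ndufv1 from -0.15 to 0.004), 35 with the length slope (Cox6c2 from 0.46 to -0.01), 22 with array weights (Cox6b2 from -0.31 to 0.04), 22 without the 4 libraries, 11 with the mitochondrial share, 9 after nuclear rescaling and 4 to 19 leaving out each library. With median-of-ratios scaling Cyc1 was at 0.005, Ndufaf1 at 0.10, Ndufaf4 at 0.10, Sdhb at 0.12 and Sdhc at 0.073. Ndufaf1 was also at 0.012 with the mitochondrial share and 0.026 with the length slope, and Sdhc at 0.00 with array weights and 0.014 without the 4 libraries. Leaving out each library gave -0.16 to 0.01 for Ndufaf1, -0.09 to 0.014 for Sdhb, -0.124 to 0.004 for Sdhc and -0.093 to 0.26 for Sdhd. The cause was not tested. Deviations of libraries with the same replicate number correlated between -0.22 and 0.05 over 5 pairs, and 1 of 10 libraries correlated best with its own number. Equal numbers thus showed no shared deviation. Whether they were paired in handling cannot be told from these values. Depth limits Ndufa4l2 and Cox8b, with at most 50 and 13 estimated fragments in a library.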
